A study of Oryza sativa with 10 samples.

Results

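In root libraries of rice (Oryza sativa), 36 nuclear genes of the 38978 counted genes had reads in every library of the line S3 and 0 counts in every library of the line S13. Measured values chose them. A gene had to carry an identifier of Os followed by digits and lie outside the interval from 10700000 to 12300000 on chromosome 1 of the build IRGSP-1.0. It also needed at least 1 CPM on library totals (CPM is a count divided by the library size and scaled to a fixed common total) in all 5 S3 libraries and 0 counts in all 5 S13 libraries. The limit in S3 alone was met by 18580 of 37849 nuclear genes. The difference between the lines at these 36 genes is therefore a description and was given no test. With the lines exchanged, the same rule gave 58 genes.

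S13 is labelled salt tolerant and S3 salt susceptible. Seedlings of both lines grew for 30 days without added salt, then spent 12 days at 140 mM NaCl or, as controls, at 0 mM, and roots were taken at an age of 42 days. Each line had 2 control and 3 salt libraries, with totals from 22938524 to 25703942 counts. Separate plants are not stated for the libraries within a group. The p-values therefore set a difference against the spread of these libraries only, and that spread may be technical.

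None of the 36 identifiers could be paired with a gene name, so no function is given. The same holds for nuclear markers of root cells, and the tissue rests on the labels. Of 20 listed plastid photosystem genes, which mark green tissue, 15 were in the files, and all 15 had counts in every library. They summed to 219 and 168 CPM on library totals in S3 controls and to 250, 172 and 326 CPM in S3 under salt.

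Lines of a crop species can differ in which genes their genomes hold, in the sequence of shared genes and in where genes are transcribed. RNA sequencing counts a read at a locus only after aligning it to 1 reference genome. A count of 0 in a line can follow from a gene that the line lacks, from sequence too different for its reads to align, or from a gene that is not transcribed in the sampled tissue. Counts alone do not tell these cases apart, and which of them held was not tested.

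Most of the S3-only genes were weakly transcribed compared with other genes that met the same limit in S3. Levels are given in CPM scaled by the trimmed mean of M values (TMM), a factor that corrects library totals for the few genes that take a large share of reads. The mean level over the 5 S3 libraries ran from 1.42 to 65.4 CPM with a median of 4.62, beside a median of 15.4 for the 18580 nuclear genes at 1 CPM or more in all S3 libraries. Only 6 of the 36 lay above the median of those genes. Per kilobase of exon, the median was 4.75 CPM beside 10.1. The lowest count of any S3-only gene in any S3 library was 25. The rule itself kept counts from falling much lower, since it needed at least 1 CPM in every S3 library. In S13, 0 of 122843184 counts allows up to 0.0244 CPM on library totals (3 counts over the 5 libraries, counting error only). Against that floor the level in S3 was 58-fold to 2396-fold higher. The rule asked for 0 counts in S13 and at least 1 CPM in S3, so a high ratio was fixed in advance. Because the genes were chosen for 0 counts, their S13 level may lie above the floor.

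**Figure D1:**
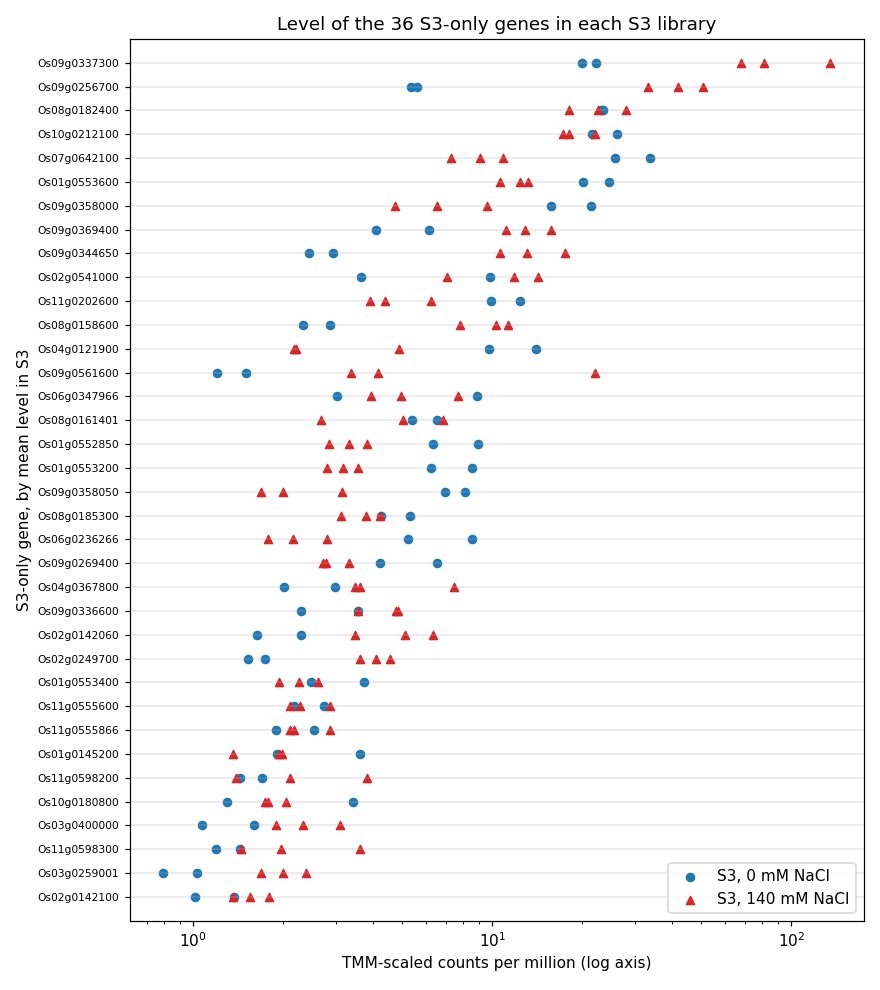
TMM-scaled CPM (log axis) of each of the 36 S3-only genes in the 2 control libraries (circles) and 3 salt libraries (triangles) of S3, ordered by the mean of the 5 libraries. Os09g0337300 stands at the top with 135 CPM in 1 salt library, and most genes lie below 10 CPM in every library.

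The gene with the highest level was Os09g0337300 (chromosome 9, 10252139 to 10254682, plus strand). It held 22.3 and 19.9 TMM-scaled CPM in the control libraries and 68.2, 135 and 81.4 in the salt libraries, so all salt libraries lay above both controls. Os09g0256700 (chromosome 9, 4277193 to 4277778, minus strand) came next, with 5.34 and 5.60 CPM in controls and 50.6, 41.9 and 33.2 under salt. Per kilobase of exon the order of this pair was turned round, at 46.6 CPM for Os09g0256700 and 26.8 for Os09g0337300.

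Os08g0182400 (chromosome 8, 4817967 to 4820693, plus strand) held 23.5 and 23.1 CPM in controls and 28.1, 22.5 and 18.0 under salt, and its groups overlapped. Os10g0212100 (chromosome 10, 8070371 to 8074802, plus strand) was at 21.6 and 26.2 CPM in controls and 17.3, 18.0 and 22.1 under salt, also with overlap. These 2 genes were among the steadiest at this level, with 1.56 and 1.51 times between their highest and lowest S3 libraries. For comparison, this ratio had a median of 3.03 over the 36 genes and reached 18.4.

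Os07g0642100 (chromosome 7, 26719124 to 26727238, minus strand) had the most divided gene model of the set, with 17 separate stretches of exon. It held 25.8 and 33.8 CPM in controls and 10.9, 9.11 and 7.29 under salt, so every salt library lay below both controls. Os01g0553600 (chromosome 1, 20816985 to 20820444, plus strand) was at 24.6 and 20.1 CPM in controls and 13.2, 12.4 and 10.6 under salt. Os09g0358000 (chromosome 9, 11576100 to 11576772, minus strand) was at 21.4 and 15.7 in controls and 9.57, 6.55 and 4.73 under salt. In both genes the groups did not overlap.

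The gene models of the set were simple. Of the 36, 13 had a single stretch of exon (36.1%), against 17.7% of the nuclear genes at 1 CPM or more in all S3 libraries, and the median was 2 stretches against 4. Exon length did not stand out, with a range from 110 to 4753 bp and medians of 1460 against 1585 bp. The plus strand held 21 genes and the minus strand 15. Exon bases shared with another gene were found for 6 genes (16.7%, against 33.2%), and in each case the partner was also one of the 36, on the opposite strand. Os01g0553200 lies wholly within the exons of Os01g0552850, Os11g0555600 shares 85.7% of the shorter model with Os11g0555866, and Os11g0598200 shares 68.9% with Os11g0598300. Whether the counting used strand is not given in the sources used here. Over the S3 libraries the partners had nearly equal counts, 659 and 685, 299 and 282, and 247 and 225, in the order named. In these pairs the reads of the partners cannot be told apart, and the same reads may enter both genes. Counted once per overlapping set, the 36 genes made 33 loci.

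The salt contrast within S3 was not part of the choice, except that a gene switched off in either condition could not be chosen. All 36 genes passed the filter on low counts. By edgeR's quasi-likelihood test with Benjamini-Hochberg adjustment over 28189 genes, 6 were higher under salt and 8 lower. The 8 include the overlapping Os01g0552850 and Os01g0553200, so by locus 6 were higher and 7 lower. A fit with 1 gene per overlapping set gave 6 higher and 6 lower. Of all tested genes, 14.4% were higher and 18.4% lower. The shares of the S3-only genes, 16.7% and 22.2%, were near that background, which also holds genes below the 1 CPM limit in S3. The median log2 fold change was -0.02 for the 36 genes and -0.06 for all tested genes. In 24 of the 36 (66.7%) the salt and control libraries did not overlap, beside 61.7% of all tested genes, with salt above control in 13 and below in 11.

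The counts rested on the scaling and on single libraries. When libraries were scaled by their totals instead, 3 of the 36 were higher and 11 lower, while the median over all tested genes shifted from -0.06 to -0.77 on the log2 scale. Without the first or the second S3 control library, which left 1 control library, the median log2 fold change of the 36 genes was 0.09 and 0.06. That median does not show the calls, several of which were lost in these fits, as given below for single genes. Leaving out each S3 salt library in turn left 5 higher each time and 3, 1 and 4 lower. The share of all tested genes called is not given for these settings. Whether the 36 genes lost more calls than other genes was therefore not tested. Calls also changed without an S13 library. The 36 genes have 0 counts in S13, so these changes do not come from S13 reads of their own. Plastid reads rose with salt in the same libraries, from 0.166% and 0.189% of counts in controls to 0.291%, 0.302% and 0.457%, and their part in the result was not tested.

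**Figure D2:**
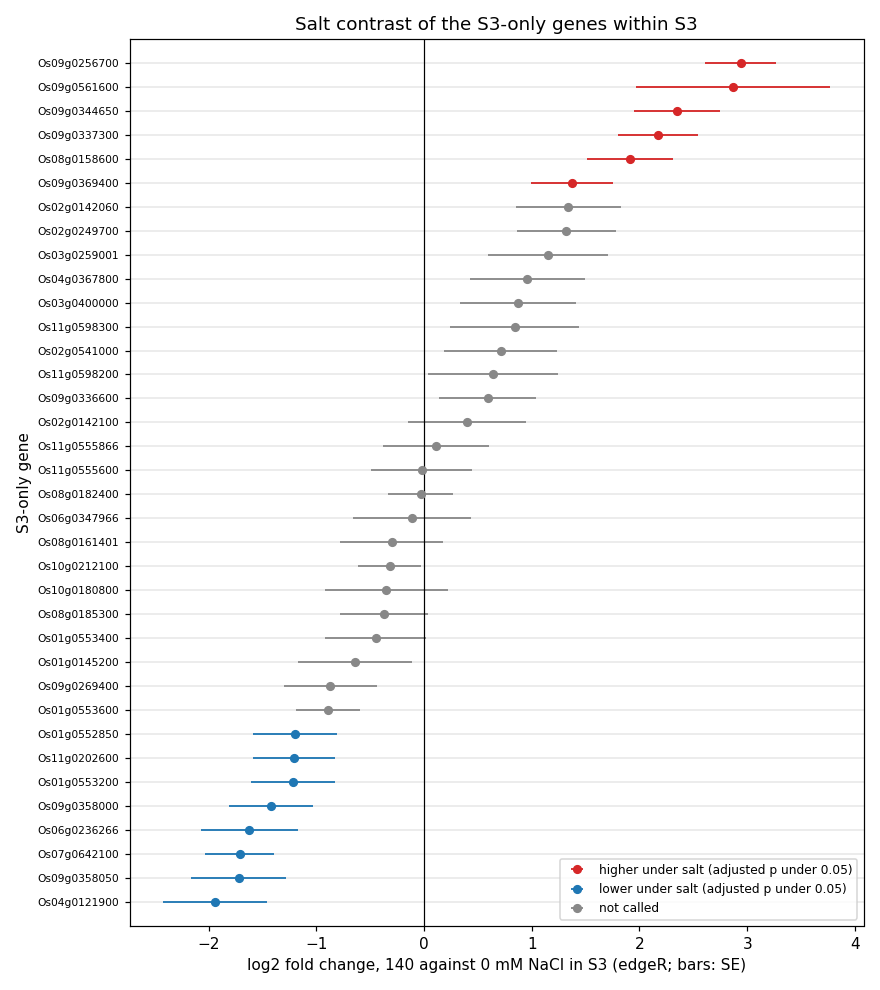
Log2 fold change of each S3-only gene at 140 against 0 mM NaCl within S3, from edgeR on all 10 libraries, with its standard error. The 6 genes higher under salt run from 1.37 to 2.94, the 8 lower ones from -1.94 to -1.20, and 22 were not called.

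Os09g0256700 had the largest rise, at a log2 fold change of 2.94 ± 0.33 (SE; edgeR adjusted p = 0.00146). Its mean was 5.47 ± 0.181 CPM in controls (SD, n = 2) and 41.9 ± 8.73 CPM under salt (SD, n = 3). Os09g0561600 (chromosome 9, 22315765 to 22318752) followed at 2.87 ± 0.90 (SE), with an edgeR adjusted p of 0.043. It was at 1.5 and 1.2 CPM in controls and at 3.38, 4.16 and 22.0 under salt, so the third salt library stood far above the others. Without that library its log2 fold change was 1.48 and it was no longer called (adjusted p = 0.0934, edgeR). The call was also lost without the first or the second S3 control library (3.03 and 2.72) and with scaling by library totals (2.18).

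Os04g0121900 (chromosome 4, 1325252 to 1327635, minus strand) had the largest fall. It held 14.0 and 9.73 CPM in controls and 2.21, 2.17 and 4.88 under salt, a log2 fold change of -1.94 ± 0.48 (SE; edgeR adjusted p = 0.0186). It was not called without the first control or the first or second salt library of S3, where its log2 fold change was -1.66, -1.75 and -1.74. Os09g0358050 (chromosome 9, 11576816 to 11576925, plus strand), a model of 110 bp, fell from 8.09 and 6.93 CPM to 3.14, 2.00 and 1.69, a log2 fold change of -1.72 ± 0.44 (SE). This call was lost without either control library or without the second or the third salt library of S3, with log2 fold changes from -1.82 to -1.54.

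Of the 14 calls, 3 held in each of the 19 other settings tried. These were Os09g0256700, Os09g0337300 (2.17 ± 0.37, SE) and Os09g0344650 (chromosome 9, 10749470 to 10749686, minus strand). Os09g0344650 was at 2.93 and 2.43 CPM in controls and at 10.6, 17.5 and 13.1 under salt, and its log2 fold change was 2.35 ± 0.40 (SE). All 3 were higher under salt and lie on chromosome 9. The share of all called genes that held in every setting is not given. Whether the 14 calls were more or less stable than those of other genes was therefore not tested. The other 11 lost the call in at least 1 setting. For Os07g0642100 (-1.71 ± 0.32, SE) that was 1 setting only, the fit without the second S3 control library, at -1.50 with an edgeR adjusted p of 0.0518.

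Among genes of the highest levels that are not described above, Os09g0369400 (chromosome 9, 12251875 to 12254061, plus strand) was at 6.13 and 4.10 CPM in controls and 12.9, 15.7 and 11.1 under salt. Its log2 fold change of 1.37 ± 0.38 (SE) was called, and the call was lost without either control library or without the first or the second salt library of S3, at 1.11 to 1.69, and with scaling by library totals, at 0.63. Os02g0249700 (chromosome 2, 8453872 to 8455936, minus strand) varied least within groups, with a mean coefficient of variation of 10.2%. It held 1.74 and 1.53 CPM in controls and 4.08, 4.55 and 3.62 under salt. With an edgeR adjusted p of 0.0591 it did not pass, although its groups did not overlap. The median coefficient of variation was 22.0% over the 36 genes and 20% over the nuclear genes at 1 CPM or more in all S3 libraries.

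Summed over the 36 genes, the level was 281 and 251 TMM-scaled CPM in the control libraries and 309, 383 and 330 in the salt libraries. Both partners of each overlapping pair enter this sum. The share of library counts ran the other way, from 0.0399% and 0.0328% in controls to 0.0273%, 0.0288% and 0.0285% under salt, so the direction of the sum depends on the scaling. Os09g0337300 made up 7.93% and 7.94% of the sum in controls and 22.1%, 35.4% and 24.7% under salt.

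The 33 loci were spread unevenly over the chromosomes. Chromosome 9 held 9 of them, which was 1.04% of the 864 loci on that chromosome at 1 CPM or more in all S3 libraries. Over the genome the share was 0.205%, and the highest share on any other chromosome was 0.426%, on chromosome 11. Chromosomes 5 and 12 held none. Chromosome 9 also carried 5 of the 6 genes higher under salt, together with 2 of the 8 lower ones. Of the 1541 tested genes on chromosome 9, 12.7% were higher under salt in S3 and 19.7% lower, beside 14.4% and 18.4% of all tested genes. Whether the 9 genes differed from the rest of the chromosome was not tested. By the mirrored rule, S13-only loci numbered 55, of which 1 lay on chromosome 9 and 13 on chromosome 6, where 2 S3-only loci lie.

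On chromosome 9, 6 loci from Os09g0336600 to Os09g0369400 fell within 2028027 bp, a span with 130 annotated loci of which 43 were at 1 CPM or more in all S3 libraries. On chromosome 8, all 4 loci fell within 1576361 bp, from Os08g0158600 to Os08g0185300, among 142 annotated loci. Over all chromosomes, the gap between successive S3-only loci had a median of 1222652 bp.

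Loci that stood directly beside each other in the annotation formed 3 runs. The longest was on chromosome 1 from Os01g0552850 to Os01g0553600 (20783516 to 20820444), with 4 genes at 3 loci over 36929 bp and no other annotated locus between them. The others were the pair Os02g0142060 and Os02g0142100 on chromosome 2, 1614 bp apart, and the pair Os09g0358000 and Os09g0358050 on chromosome 9, 43 bp apart and on opposite strands. A further pair, Os09g0336600 and Os09g0337300, was separated by 25434 bp and 1 locus with 0 counts in both lines.

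All 4 genes of the chromosome 1 run were lower on average under salt, and 2 of them passed the test. These 2 overlap and may count the same reads. Os01g0552850 (20783516 to 20785479, plus strand) was at 8.97 and 6.36 CPM in controls and 3.80, 3.33 and 2.85 under salt, a log2 fold change of -1.20 ± 0.39 (SE; edgeR adjusted p = 0.0495). Os01g0553200 (20783752 to 20785176, minus strand), which shares its exons with it, had -1.22 ± 0.39 (SE) and an adjusted p of 0.0466 in edgeR. Both calls lay close to the threshold. They were lost without any single S3 library, without either S13 control or without the first S13 salt library, at log2 fold changes of -1.43 to -0.93 and -1.43 to -0.97. Both were also lost with DESeq2 size factors in edgeR (adjusted p = 0.0567 and 0.0535) and with no filter on low counts (adjusted p = 0.0603 and 0.0575, edgeR). In the fit with 1 gene per overlapping set, Os01g0552850 stood for the pair and was not called (-1.18, edgeR adjusted p = 0.0512). Os01g0553600 (-0.89 ± 0.30, SE; edgeR adjusted p = 0.0538) did not pass, and neither did Os01g0553400 (20805805 to 20810162, plus strand; -0.45 ± 0.47, SE).

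The run lay within a longer stretch without S13 reads, bordered by loci that both lines transcribed. From Os01g0552500 to Os01g0554400, 7 successive annotated loci over 129129 bp (20746733 to 20875861) had 0 counts in S13. Besides the 3 S3-only loci, Os01g0552500 had 73 and 98 counts in S3 controls and 4, 1 and 3 under salt, and Os01g0554150 had 29, 2, 2, 3 and 3. The remaining 2 loci had 0 counts in both lines. On the left the next locus, Os01g0552300, had 2443 counts in S3 and 1837 in S13, and beyond it Os01g0552100 again had 336 counts in S3 and 0 in S13. On the right the next locus, Os01g0555100, had 24 and 15, and Os01g0555200 after it had 1262 and 487.

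**Figure D3:**
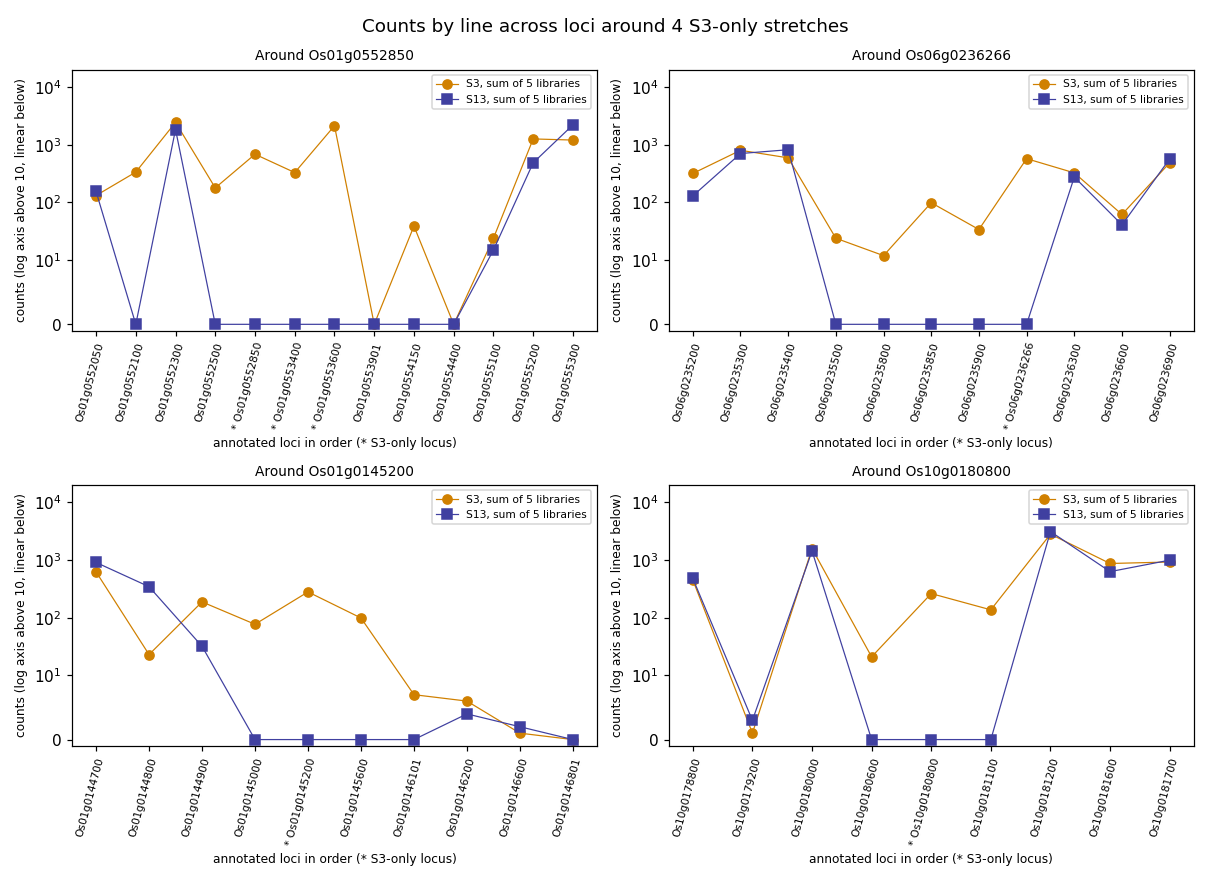
Counts summed over the 5 libraries of each line (log axis above 10, linear below) at successive annotated loci around 4 S3-only stretches, with S3-only loci marked by a star. In each panel S13 drops to 0 over neighbouring loci while S3 keeps reads at most of them, and both lines have reads again on either side, in few counts to the right of Os01g0145200.

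Such stretches were drawn around every S3-only locus by walking to the nearest loci with any S13 count. The 33 loci lay in 28 stretches, 9 of which held that locus alone, and the span ran from 604 to 144661 bp with a median of 14406. A span also takes in loci silent in both lines. In the longest, around Os09g0344650, these were 3 of 6 loci, and no other locus had 10 S3 counts. Stretches around other loci were not drawn for comparison. The stretches held 79 loci in all. Besides the S3-only loci, 15 had at least 10 counts over the S3 libraries (12 to 179), 8 had fewer and 23 had 0 counts in both lines. The 15 loci lay in 7 of the stretches.

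On chromosome 6, the stretch of Os06g0236266 (7086668 to 7088509) held 5 loci with reads in S3 and 0 counts in S13 over 31422 bp. Os06g0236266 itself fell under salt from 8.58 and 5.23 to 2.16, 1.78 and 2.80 CPM (log2 fold change -1.62 ± 0.45, SE). This call was lost without either control library or without the first or second salt library of S3, at -1.93 to -1.22. The other 4, Os06g0235500, Os06g0235800, Os06g0235850 and Os06g0235900, had 24, 12, 99 and 34 counts over the S3 libraries. The bordering loci had reads in both lines, 593 counts in S3 and 820 in S13 at Os06g0235400 and 326 and 276 at Os06g0236300.

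On chromosome 10, Os10g0180800 (5539743 to 5544578) stood between Os10g0180600, with 21 counts in S3, and Os10g0181100, with 7 and 5 counts in S3 controls and 56, 34 and 35 under salt, all with 0 counts in S13. Os01g0145200 (chromosome 1, 2434793 to 2438772) likewise stood between Os01g0145000 and Os01g0145600, with 77 and 99 counts in S3 and 0 in S13.

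Other members stood alone. Os07g0642100, with 2408 counts in S3 and 0 in S13, lay 7310 bp from Os07g0641800, which had 3504 counts in S3 and 2884 in S13, and 399 bp from Os07g0642200, which had 191 and 47. The S13 minus S3 log2 fold changes of these neighbours, over both conditions, were -0.33 ± 0.18 and -2.08 ± 0.74 (SE), with edgeR adjusted p of 0.525 and 0.219. Os02g0541000 (chromosome 2, 20102615 to 20103218) had 1080 counts in S3 between neighbours with 1340 and 10150 counts in S3 and 990 and 6498 in S13. Both adjacent loci had at least 10 S13 counts at 6 of the 33 loci, 1 of them did at 14, and neither did at 13.

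Neighbours were chosen by position alone, up to 5 annotated loci on each side with S3-only loci left out. Of 181 neighbours with at least 10 counts over the S3 libraries, 17 had 0 counts in S13 (9.39%), beside 0.586% of all such nuclear loci. Among the adjacent ones this was 9 of 35 (25.7%). By edgeR's test of S13 against S3 over both conditions, 15 of 159 tested neighbours were lower in S13 (9.43%) and 4 higher (2.52%), where 1.95% and 2.11% of all tested genes were. Of the 15, 8 had 0 counts in S13 and 3 had 1 to 3 counts. These 11 passed the filter on low counts through their S3 reads alone and so had to differ, and their number is given as a description. The other 4 had at least 32 counts in S13. With a stricter filter on low counts (5 CPM in at least 2 libraries), 4 neighbours were lower. These are not the same 4, since Os01g0144900, with 188 counts in S3 and 32 in S13, does not reach 5 CPM. The number tested and the share of all genes called are not given for that filter. No test was made of these shares, and neighbours of a run share their surroundings.

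**Figure D4:**
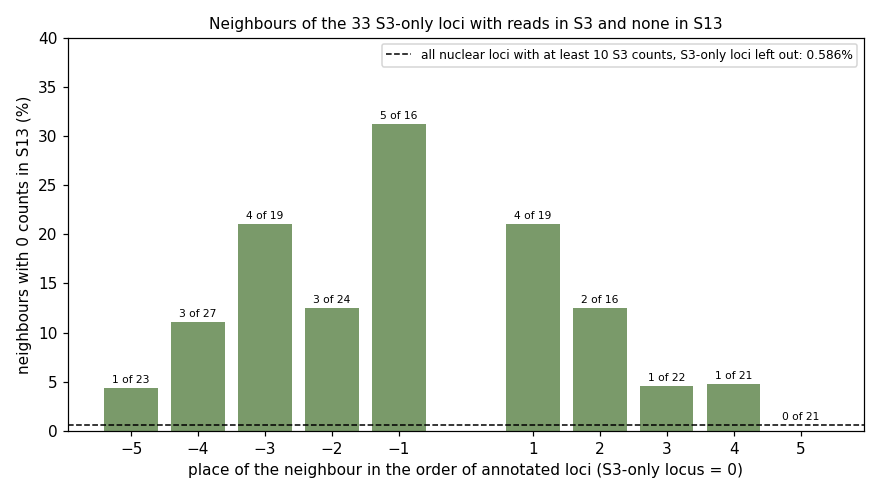
Share of neighbouring loci with at least 10 S3 counts that had 0 counts in S13, by place in the order of annotated loci left (-) and right of the 33 S3-only loci, with counts above the bars and the share over all nuclear loci (0.586%) as a dashed line. The share is 31.2% and 21.1% at the adjacent places, 4.35% and 0% at the outermost, and up to 21.1% between them.

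The neighbour with the most extreme difference the other way was Os06g0347100 (chromosome 6, 13947426 to 13951272). It is itself an S13-only locus, the only one within 5 loci of an S3-only locus. It had 58.4 and 54.9 TMM-scaled CPM in S13 controls, 49.2, 40.8 and 39.3 in S13 under salt, and 0 counts in S3. The S3-only gene in question, Os06g0347966 (chromosome 6, 14005109 to 14005851, minus strand), was at 8.88 and 3.03 CPM in S3 controls and 3.94, 7.66 and 4.97 under salt, with overlap of the groups. The adjacent locus Os06g0347700, whose span runs across Os06g0347966, had 0 counts in S3 and 17 in S13.

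Near the limits of the choice, values lay close together. Just inside, the overlapping genes Os11g0598200 and Os11g0598300 had lowest levels of 1.04 and 1.09 CPM on library totals. Just outside, Os06g0149700 and Os06g0149801, which lie together on chromosome 6 from 2574179, had 0 counts in S13 and lowest levels of 0.961 and 0.877 CPM in S3. A further 4 genes met the limit in S3 with a single count over the S13 libraries. The highest of these were Os11g0246300, with 913 counts in S3, and Os04g0340300, with 840. Another, Os08g0158800, with 274 counts in S3, lies directly beside the S3-only gene Os08g0158600 (chromosome 8, 3425736 to 3428059), which rose under salt from 2.87 and 2.33 to 7.79, 10.3 and 11.3 CPM (log2 fold change 1.91 ± 0.40, SE). That call was lost without either S3 control library, at 2.07 and 1.77, and with scaling by library totals, at 1.19.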

How the data were processed

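Total RNA of samples labelled root was sequenced in 10 libraries. The authors deposited raw read counts per gene, not normalized, with each gene's exon positions, per the file headers. HISAT2, featureCounts, Trimmomatic, FastQC and DESeq2 are named in the submitters' processing notes, with the build IRGSP-1.0. Versions, settings and strand handling are not given there. Groups came from the titles. No column of another sample was present (0).

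The members and lists were chosen with earlier results of these data known. The analysis used edgeR 4.0.16 under R 4.3.3. Its filterByExpr left 28189 genes and removed 10789, TMM factors scaled the libraries (1.31 to 1.42 in S3 controls, 0.753 to 0.883 in S3 under salt), and all 10 libraries entered 1 quasi-likelihood fit with a mean for each of the 4 groups and no replicate block. A gene was called at a Benjamini-Hochberg adjusted p under 0.05. The model was tested on simulated data with 200 changed genes, whereas 9237 genes were called for salt in S3. The simulation does not cover so wide a change, and no result here rests on it. Genes sharing at least 0.5 of the shorter model's exon bases were joined into 1 locus for positions. A name was found for 0 of the 36 identifiers in the RefSeq gene table of assembly ASM3414082v1; no sequences were used here.

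By the rule, genes named are the 8 of highest mean CPM, the members of runs of 3 or more loci, the 2 largest rises and 2 largest falls among calls, the extremes of variation, and those nearest the limits. Other genes named as neighbours, pairs, in stretches or as stable calls were chosen after their values were seen. Alternatives included DESeq2 1.42.0 and limma-voom (limma 3.58.1). Intervals and floors cover counting error only.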

Additional observations from a re-analysis of the deposited data

How the results depend on the processing

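The number of S3-only genes was 36, and 36 to 39 when any 1 library was left out. It was 22 or 7 at 2 or 5 CPM in all S3 libraries, and 70 when only the mean over the S3 libraries had to reach 1 CPM. Genes higher under salt in S3 numbered 6 (3 with library totals, 3 to 8 without 1 library) and genes lower 8 (3 with a replicate block, 1 to 9 without 1 library). The share of all tested genes called is not given for these settings, so the counts do not set the S3-only genes apart from other genes. The median log2 fold change, -0.02, was -0.72 with library totals, -0.43 with a stricter filter (5 CPM, needed in 2 libraries), which tests fewer genes, and -0.03 to 0.09 without 1 library. With library totals the median of all tested genes was -0.77. Neighbours lower in S13 numbered 15 (4 with the stricter filter, 24 for 10 loci on each side, 6 for 1 locus on each side, a setting chosen after seeing the data, and 11 to 18 without 1 library). With 1 library left in a group, that library is assumed to vary like the other groups. The S3-only genes have no S13 counts, so their own spread is seen in the S3 libraries only. Os08g0182400, uncalled at -0.03, changed sign at 0.02 with DESeq2 or its size factors, 0.11 with the replicate block and 0.12 without the third S3 salt library (range without 1 library -0.2 to 0.12), and Os11g0598200, uncalled at 0.64, was at -0.04 with library totals. Replicate numbers did not pair the libraries: deviations of same-numbered libraries correlated at -0.126 to 0.183. With the block, 4 genes were higher, and 7 of the 14 calls were lost in edgeR: Os09g0561600 (1.49, adjusted p = 0.0644), Os09g0369400 (1.5, 0.0508), Os09g0358050 (-1.58, 0.0638), Os09g0358000 (-1.21, 0.0627), Os11g0202600 (-1.42, 0.0579), Os01g0552850 (-1.09, 0.137) and Os01g0553200 (-1.12, 0.13).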
